A study of Homo sapiens with 36 samples.

Results

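Senescent and proliferating IMR90 ER:RAS cells were compared in the presence of a caspase inhibitor, across all genes. IMR90 cells are human lung fibroblasts, and ER:RAS is a RAS oncoprotein fused to the oestrogen receptor's hormone-binding part, which 4-hydroxytamoxifen (4OHT) switches on. The comparison rests on 6 of the study's 36 libraries, chosen by their labels: 3 of senescent cells (+4OHT) and 3 of proliferating cells (-4OHT), all given vehicle for 36 h and a caspase inhibitor overnight. Cells of passage 14 had been kept in medium with 10% FBS for 6 days, with new medium on day 3, and the protocol gives 4OHT at 100 nM. The proliferating libraries carry the same protocol text as the senescent ones, so the state of each was taken from its title, description and source label. Both states carry the ER:RAS construct and both received the inhibitor, so the inhibitor's own effect is not measured by this comparison. The same states were also compared in 6 further libraries, 3 senescent and 3 proliferating, given vehicle for 36 h without it. The labels name neither the inhibitor nor its dose, do not say which RAS gene the construct holds, and are silent on separate cultures and on whether 1 or more cell populations were used. Each p-value is thus set against the spread between the 3 libraries of a group, pooled over all 36 libraries, which could be technical alone.

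Oncogene-induced senescence is a lasting arrest of the cell cycle that follows strong RAS signalling. The arrest is held by CDK inhibitors acting on the RB and p53 pathways, and arrested cells secrete cytokines, chemokines and proteases, a set known as the senescence-associated secretory phenotype, with IL1A and NF-kB near its top. Caspases are the proteases that carry out apoptosis and, in another branch, process inflammatory cytokines, and caspase inhibitors are added to cell cultures to keep dying cells from being dismantled.

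The 6 libraries held between 10854351 and 20563285 counts, and 18696 genes had enough counts to be tested. The first principal component, with 77.28% of the variance of the 12 vehicle libraries at 36 h, separated the states, and the second, with 5.11%, separated the libraries with the inhibitor from those without. At 1 common depth of 10854351 counts, a count was seen for 23588 to 23751 genes in the proliferating libraries with the inhibitor against 25324 to 26213 without it, and for 22848 to 23042 against 24058 to 25101 in the senescent ones. Proliferating replicate 3 and senescent replicate 1 with the inhibitor stood apart from their groups on the third component, at -28.8 against 3.14 and -0.81 and at 20.8 against 2.24 and 0.11. Proliferating replicate 3 was the library with the fewest counts, and its summed CPM (counts scaled to 1 common library total) of CXC chemokines with the ELR motif was 14.7 against 3.21 and 3.52 in replicates 1 and 2. Without it, 4631 genes were higher and 4512 lower, and without senescent replicate 1, 4708 and 4413, against 4979 and 4808 with all libraries. Of 12 fibroblast markers, 12 were expressed, with a summed level of 17080 to 17380 CPM in proliferating and 10190 to 10220 CPM in senescent libraries. Leukocyte markers summed to 1.44 to 2.08 and 1.58 to 2.37 CPM, epithelial markers to 35.0 to 37.4 and 23.9 to 30.3 CPM, mostly keratins, and endothelial markers to 16.3 to 18.6 and 7.44 to 9.71 CPM. SFTPC, KRT5, KRT14 and CD3E had no count in the 6 libraries. The part of these markers in the results was not tested.

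With the inhibitor present, 9787 genes (52.3% of those tested) differed between senescent and proliferating cells at a Benjamini-Hochberg adjusted p under 0.05 by edgeR's quasi-likelihood test. Of all genes tested, 4979 (26.6%) were higher and 4808 (25.7%) lower in senescent cells, and 12176 (65.1%) had 3 and 3 libraries that did not overlap. These shares are the background against which each gene group below is read. The filter used all 12 groups. List members with almost no counts in 1 state could pass it only through groups in which they are high. Members silent in both states were left out of the counts below. Larger changes leaned to the lower side: 1434 genes (7.67%) were higher and 2269 (12.1%) lower by at least 1 on the log2 scale. Scaled to library totals alone, the median gene moved to -0.15 on the log2 scale and the split became 3642 higher and 6052 lower, so that calls of small size depend on the scaling. The strip plot shows every gene group.

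**Figure D1:**
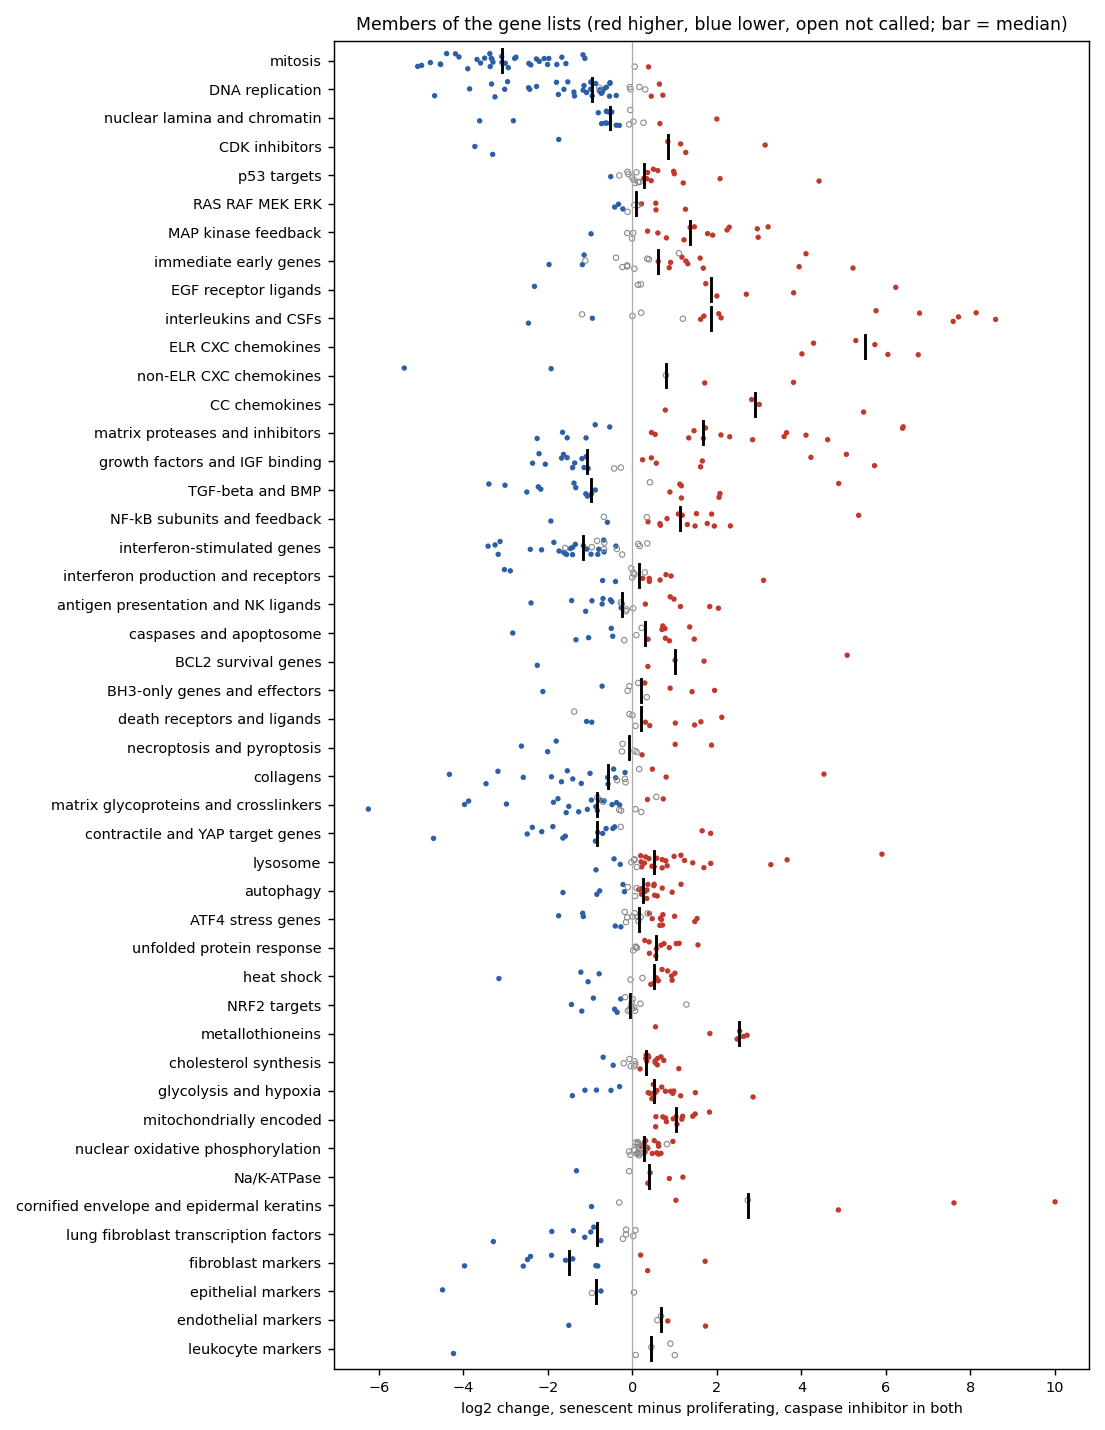
Log2 change between senescent and proliferating cells, both with the caspase inhibitor, for the tested members of 46 gene lists (x axis); each point is 1 gene, red where higher and blue where lower at an adjusted p under 0.05, open where not called, and the black bar is the list's median. The mitosis genes sit far to the left with a median of -3.09, and the ELR chemokines far to the right with a median of 5.51.

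HRAS, a RAS GTPase and the gene used in many inducible RAS constructs, rose. Its level was 412, 451 and 474 CPM in the proliferating libraries and 1020, 1100 and 1068 CPM in the senescent ones. The groups did not overlap, and the change was 2.39-fold (log2 1.25 ± 0.09 SE, adjusted p = 2.35e-14). NRAS fell by 0.23 on the log2 scale (adjusted p = 0.0158, edgeR quasi-likelihood), a call that ended without proliferating replicate 3 or senescent replicate 2. Reads of a construct and of the cell's own copy are counted together and cannot be told apart here. Of 10 genes of the RAS, RAF, MEK and ERK chain, 4 rose and 3 fell, with a median of 0.09, near the 0.0 of all tested genes.

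Feedback genes of that chain, which ERK induces and many of which restrain it, were higher as a group: 13 of 17 rose and 1, SPRY1, fell (-0.98), with a median log2 change of 1.37. DUSP6, a phosphatase of ERK, had 40.2, 42.4 and 43.9 CPM in proliferating and 328, 331 and 335 CPM in senescent cells. This is a 7.86-fold rise with no overlap (log2 2.98 ± 0.08, adjusted p = 3.10e-25). DUSP4, a related phosphatase of the nucleus, rose 7.76-fold, SPRY4, an inhibitor of receptor signalling to RAS, 4.89-fold, and IER3 9.26-fold. Ligands of the EGF receptor rose with them. AREG reached 18.3 to 20.6 CPM from 0.0535 to 0.483 CPM, EREG 163 to 188 from 11.1 to 14.6, and HBEGF 42.4 to 44.9 from 5.40 to 8.53. Of 8 tested genes on that list, 5 rose and LRIG3 fell (-2.32), while EGFR itself was at 0.13 (adjusted p over the threshold). Immediate early genes were mixed, with 11 of 23 higher and 3 lower. PTGS2, the inducible prostaglandin synthase, rose 37.3-fold and EGR1 2.25-fold. FOS was not called: it had 0.16, 0.255 and 2.17 CPM in proliferating and 0.548, 1.29 and 0.751 CPM in senescent libraries, so the groups overlapped through proliferating replicate 3, in which ARC was also high (2.25 CPM against 0.107 and 0.127).

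The cell cycle genes fell. Of 37 mitosis genes, which encode cyclins, spindle motors and checkpoint proteins, 35 fell, AURKA was not called and ECT2, an exchange factor that acts in cytokinesis, rose 1.30-fold, and the list's median was -3.09 on the log2 scale. MKI67, the Ki-67 antigen of cycling cells, had 37.4, 44.5 and 51.1 CPM in proliferating and 1.23, 1.62 and 1.27 CPM in senescent libraries. The senescent libraries lay far below every proliferating one, a 31.8-fold difference (log2 -4.99 ± 0.33, adjusted p = 6.64e-17). KIF20A, a motor of the mitotic spindle, was 33.9-fold lower, NDC80, a kinetochore protein, 27.5-fold, and CCNA2, the cyclin of S phase and G2, 5.30-fold. AURKA, a mitotic kinase, stood at 17.6 to 21.5 CPM against 19.5 to 22.1 CPM. In bulk RNA, fewer cycling cells and less RNA per cell cannot be told apart.

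The promoters of MKI67 and of CDK1, the mitotic kinase, are shown because mitosis genes moved together. These genes have the largest changes among called mitosis genes at 5 CPM or more whose promoters hold both elements marked below. The choice thus required the marked elements, and their presence in these promoters is no result. CDK1 was chosen after its values were seen and was 23.2-fold lower (7.22 to 10.9 CPM against 0.206 to 0.504 CPM). The 250 bases before the RefSeq start are printed 5′ to 3′ in build GRCh38.p14, MKI67 at chr10:128126424-128126673 on the reverse strand and CDK1 at chr10:60778081-60778330 on the forward strand. Capitals mark the CHR element TTTGAA and the CCAAT box, searched on both strands; in MKI67 the second CHR element overlaps a CCAAT box read on the other strand.
MKI67: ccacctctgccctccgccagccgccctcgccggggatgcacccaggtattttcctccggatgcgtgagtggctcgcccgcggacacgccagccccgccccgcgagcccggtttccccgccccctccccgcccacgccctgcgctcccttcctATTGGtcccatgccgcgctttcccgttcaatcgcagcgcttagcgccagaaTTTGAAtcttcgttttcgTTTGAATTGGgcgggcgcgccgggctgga
CDK1: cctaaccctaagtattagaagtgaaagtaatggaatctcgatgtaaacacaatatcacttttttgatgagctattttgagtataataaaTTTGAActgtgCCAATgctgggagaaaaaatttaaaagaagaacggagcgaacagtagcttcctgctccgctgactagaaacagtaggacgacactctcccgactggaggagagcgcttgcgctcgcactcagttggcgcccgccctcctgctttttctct
TTTGAA was found in 17 of 31 mitosis promoters (54.8%) against 13.6% of 27305 promoters of this length, and CCAAT in 24 of 31 (77.4%) against 33.0%. CCAAT was also found in 18 of 35 promoters of DNA replication genes (51.4%) and in 7 of 11 promoters of matrix proteases and inhibitors (63.6%), a list in which most members rose. These are matches of letters, not shown sites. Here and in the lists below, members were searched whether called or not, so the shares describe the lists and not these libraries.

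Genes of DNA replication fell less steeply, with 34 of 42 lower, 3 higher and a median of -0.97. TK1, thymidine kinase, had 6.63, 8.31 and 7.16 CPM in proliferating and 0.274, 0.168 and 0.405 CPM in senescent libraries, a 25.7-fold fall with no overlap (log2 -4.68 ± 0.49, adjusted p = 1.11e-13). RRM2, a subunit of ribonucleotide reductase, fell 7.75-fold and MCM2, a subunit of the replicative helicase, 2.25-fold. The sliding clamp PCNA was not called, at 50.6 to 58.7 against 51.7 to 55.0 CPM. The E-type cyclins moved apart: CCNE2 fell 9.53-fold whereas CCNE1 rose 1.65-fold (log2 0.72 ± 0.14, adjusted p = 5.54e-05). FEN1 and GINS3, the other members that rose, lost their calls when scaled to library totals, and GINS3 also without proliferating replicate 1 or senescent replicate 2. The E2F site TTTCCCGC was found in 8 of 35 promoters of these genes (22.9%) against 1.42% of all, and TTTGGCGC in 5 (14.3%) against 0.553%.

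CDK inhibitors split by gene. CDKN2B, which encodes p15, had 35.8, 36.2 and 33.5 CPM in proliferating and 326.8, 305.0 and 300.0 CPM in senescent libraries. This 8.82-fold rise had a standard error of 0.07 on a log2 change of 3.14 (adjusted p = 1.01e-27). CDKN1A (p21) rose 2.20-fold, from 647 to 699 up to 1408 to 1536 CPM, and CDKN2A, whose p16 and ARF transcripts are counted together, 2.40-fold, from 17.8 to 22.6 up to 46.3 to 54.8 CPM. CDKN1C (p57), CDKN2C (p18) and CDKN1B (p27) fell, by 3.73, 3.31 and 1.74 on the log2 scale. Of 22 target genes of p53, 12 rose and SESN1 fell, with a median of 0.28, and 8 of the 22 rose when scaled to library totals. GDF15, a stress cytokine also induced outside the p53 pathway, led with 21.4-fold (log2 4.42 ± 0.11, adjusted p = 1.79e-26), while MDM2, the ubiquitin ligase of p53, was not called at 218 to 228 against 232 to 261 CPM. In the nuclear lamina and chromatin list, 12 of 18 fell and 2 rose. LMNB1, lamin B1, had 12.7, 15.8 and 14.7 CPM in proliferating and 1.58, 0.784 and 1.21 CPM in senescent libraries, a 12.3-fold fall with no overlap (log2 -3.62 ± 0.25, adjusted p = 4.75e-16). The chromatin protein HMGB2 fell 7.05-fold, whereas HMGA2, an architectural protein of senescent chromatin, rose 3.99-fold.

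**Figure D2:**
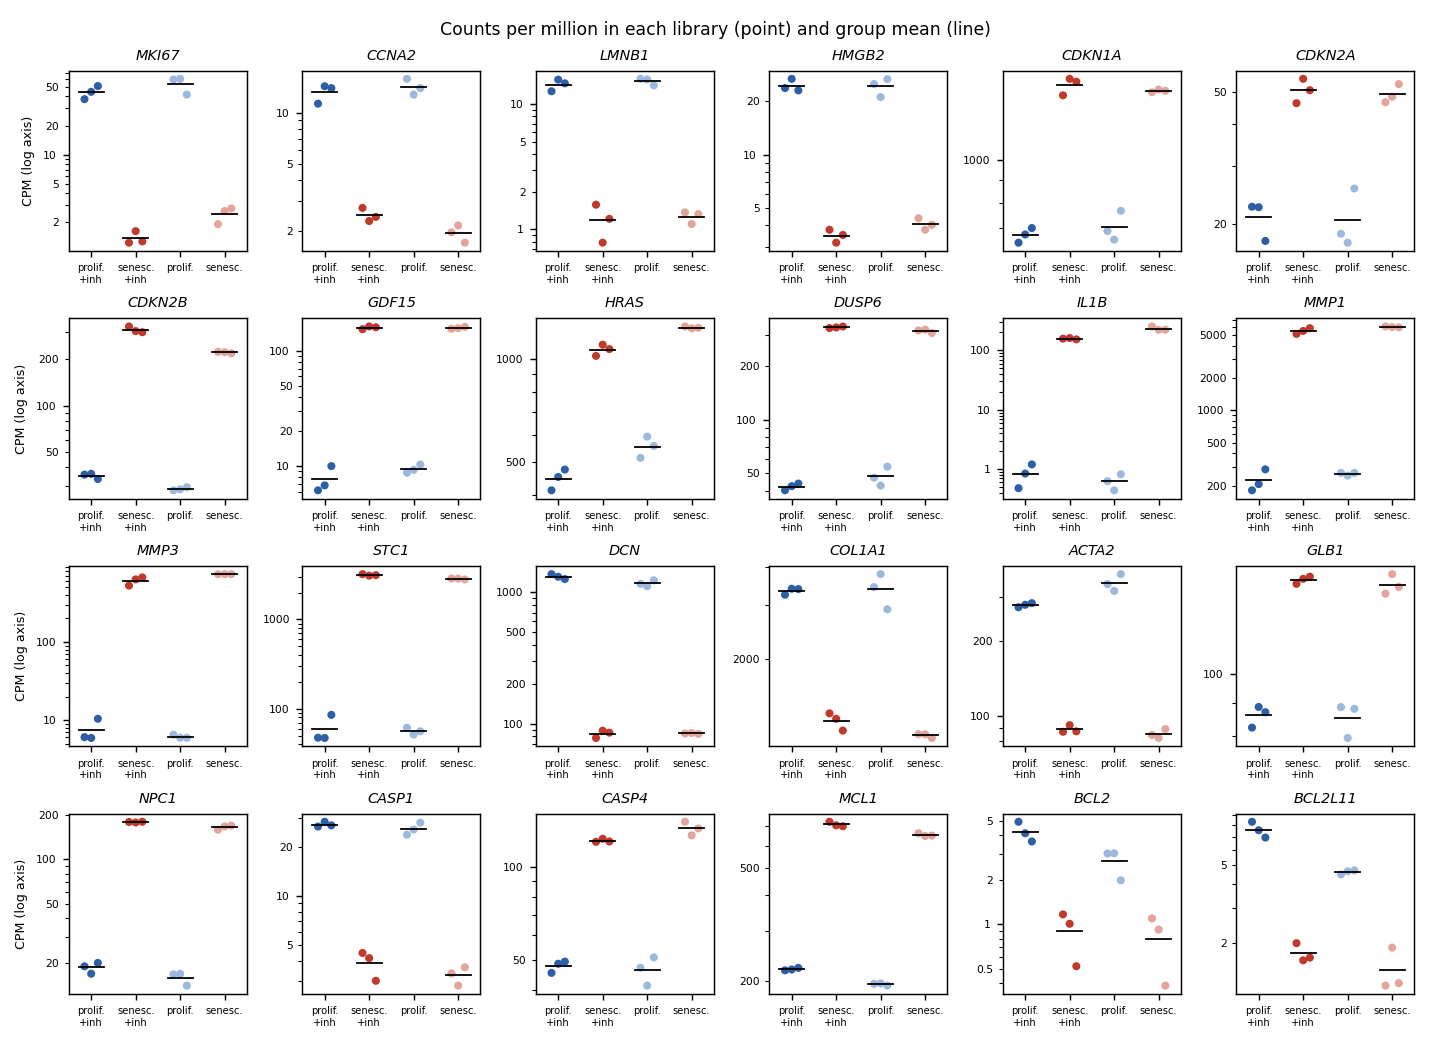
Level of 24 genes in CPM (y axis, log scale, a range of its own in each panel) in 4 groups of 3 libraries: proliferating and senescent with the inhibitor (dark blue, dark red) and without it (light blue, light red); each point is 1 library and each line a group mean. In each panel the senescent and proliferating libraries with the inhibitor do not overlap, from 37.4 to 51.1 against 1.23 to 1.62 CPM for MKI67 to 33.5 to 36.2 against 300.0 to 326.8 CPM for CDKN2B.

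Secreted factors held many of the steepest rises. Of 16 tested interleukins and colony-stimulating factors, 10 rose and 2, IL15 and CSF1, fell. IL24 had 0 counts over the proliferating libraries and CSF2 and CSF3 1 each, so these passed the filter only through groups in which they are high. IL18, TNF and IL7, with few counts in both states, were not tested. The count of risers is thus no result about the list. IL1B, an inflammatory cytokine that caspase 1 cleaves, had 0.481, 0.848 and 1.21 CPM in proliferating and 157, 161 and 153 CPM in senescent libraries. All 3 senescent libraries lay above 150 CPM, a 193-fold rise (log2 7.59 ± 0.23, adjusted p = 1.55e-28). IL1A had no count in proliferating replicate 1, 0.0424 and 0.402 CPM in replicates 2 and 3, and 31.1, 34.0 and 33.7 CPM in senescent libraries, and its log2 change of 8.13 became 10.07 without proliferating replicate 3. TNFSF15, also called TL1A and related to TNF, rose from 0.214, 0.339 and 0.966 to 182, 173 and 166 CPM, and its log2 change of 8.60 became 9.22 without proliferating replicate 3. CSF3, the granulocyte factor, had 1 count over the proliferating libraries and 266 over the senescent ones, a ratio of 293 with a 95% counting interval from 52.1 to 11600. Its fitted log2 change of 7.72 became 9.56 without proliferating replicate 3 and 7.09 without replicate 2. IL6 rose less, from 1.65 to 2.09 up to 7.51 to 8.09 CPM (4.28-fold, adjusted p = 3.51e-08), and LIF and IL11, of the same cytokine family, 3.23-fold and 4.12-fold.

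CXC chemokines that carry the ELR motif and draw neutrophils rose in 6 of 6 tested genes (5 when the compared libraries were fitted alone), with a median log2 change of 5.51. CXCL6 had 1 count over the proliferating and 20 over the senescent libraries and passed the filter only through groups in which it is high. PPBP, with 0 and 2 counts, was not tested, so the count of risers is no result about the list. CXCL8, interleukin 8, had 1.82, 2.88 and 9.82 CPM in proliferating and 478, 477 and 459 CPM in senescent libraries. Every senescent library was far above the highest proliferating one, replicate 3, and the rise was 109-fold (log2 6.76 ± 0.26, adjusted p = 3.18e-21). Without that replicate the log2 change was 7.62 for CXCL8, 6.60 for CXCL1 (5.29 with it), 6.66 for CXCL5 (5.74) and 6.66 for CXCL3 (6.05), and 6 of 6 genes still rose. Without proliferating replicate 2 it was 5.38 for CXCL3 and 3.69 for CXCL2 (4.29 with it). CXCL1, CXCL2 and CXCL3 are close copies, and reads they share could be split between them. Other chemokines went both ways. CXCL10, which binds CXCR3 and is often induced by interferon, rose 14.0-fold, from 0.402 to 0.848 up to 9.29 to 9.73 CPM, and CCL20 44.3-fold, whereas CXCL12, the ligand of CXCR4, fell from 11.3 to 15.2 down to 0.231 to 0.392 CPM, 42.2-fold. CCL2, the monocyte attractant, rose 1.72-fold.

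The promoters of CXCL8 and CXCL3 are shown because the ELR chemokines moved together. These genes have the largest changes among called ELR chemokines at 5 CPM or more whose promoters hold the motif marked below. The choice thus required the motif. They lie in GRCh38.p14 at chr4:73740319-73740568 on the forward strand for CXCL8 and chr4:74038690-74038939 on the reverse strand for CXCL3, printed as above from RefSeq. Capitals mark the NF-kB motif GGNNNTTCC on either strand, and the match in CXCL8 and the first in CXCL3 read on both.
CXCL8: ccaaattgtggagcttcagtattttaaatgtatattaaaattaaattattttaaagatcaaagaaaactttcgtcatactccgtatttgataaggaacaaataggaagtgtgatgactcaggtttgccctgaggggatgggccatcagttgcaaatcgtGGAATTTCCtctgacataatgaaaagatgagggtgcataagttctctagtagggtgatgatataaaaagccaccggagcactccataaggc
CXCL3: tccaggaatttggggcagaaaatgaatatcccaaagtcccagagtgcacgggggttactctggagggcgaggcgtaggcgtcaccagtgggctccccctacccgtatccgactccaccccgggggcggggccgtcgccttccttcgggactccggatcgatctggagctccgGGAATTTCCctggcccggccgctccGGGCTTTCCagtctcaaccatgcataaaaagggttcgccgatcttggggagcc
The motif was found in 6 of 7 ELR chemokine promoters (85.7%) and in 10 of 16 promoters of the NF-kB list (62.5%), against 17.1% of all promoters. It was also found in 15 of 35 promoters of DNA replication genes (42.9%), most of which fell, and in 0 of 11 of matrix proteases and inhibitors, most of which rose. Of 18 genes of the NF-kB list, 14 rose and 2 fell, and a link between them and the chemokines was not tested. RELB, a subunit of the alternative NF-kB pathway, rose 3.67-fold, NFKBIA, the inhibitor that NF-kB induces, 2.79-fold, and ICAM1, an adhesion protein, 40.9-fold, whereas the adhesion protein VCAM1 fell by 1.93 on the log2 scale. TRAF1, the other member that fell (log2 -0.59), lost its call without any of 4 of the 6 libraries.

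**Figure D3:**
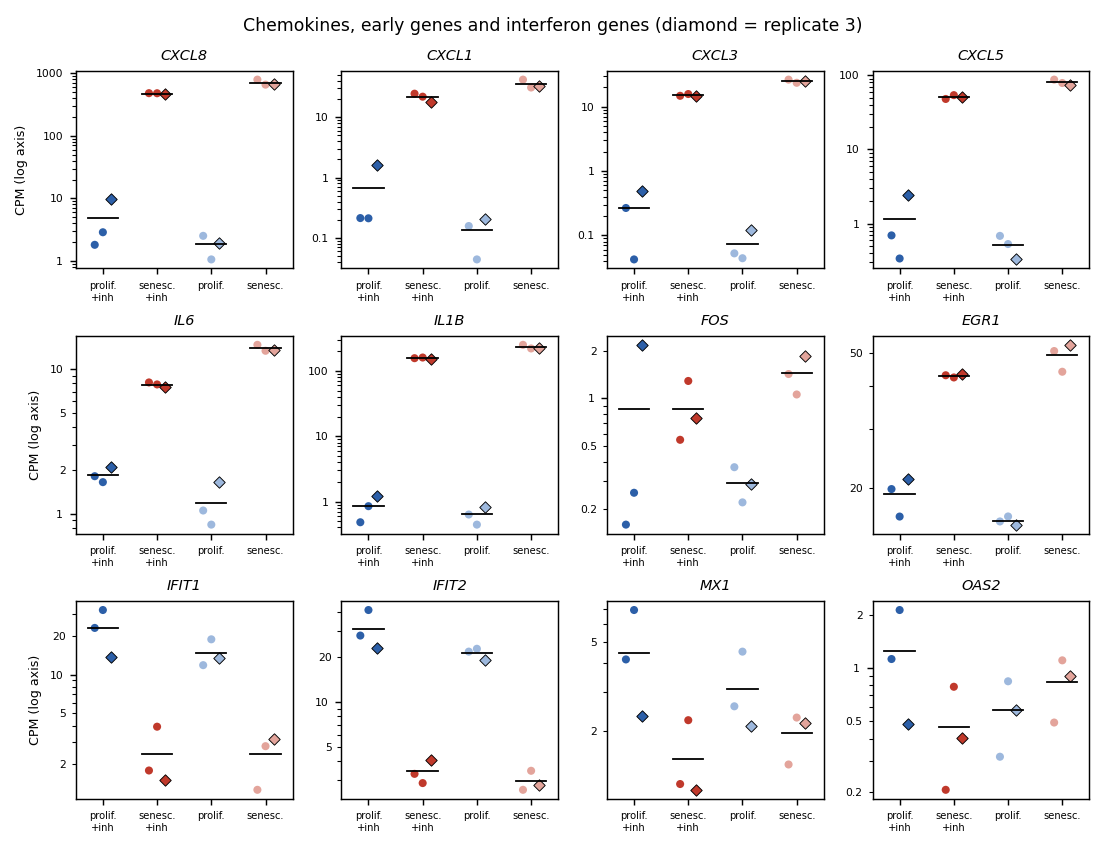
CPM (y axis, log scale, a range of its own in each panel) of 12 chemokine, cytokine, early and interferon-stimulated genes in 4 groups of 3 libraries, with replicate 3 drawn as a diamond and group means as lines. For CXCL8, proliferating replicate 3 with the inhibitor reads 9.82 CPM against 1.82 and 2.88 CPM in replicates 1 and 2, and senescent libraries with the inhibitor read 459 to 478 CPM.

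Matrix proteases and their inhibitors were all called, 15 of 21 higher and 6 lower. MMP1, the interstitial collagenase, rose from 181, 206 and 283 to 5147, 5480 and 5816 CPM. The lowest senescent library held many times the highest proliferating one, and the change was 24.6-fold (log2 4.62 ± 0.11, adjusted p = 6.37e-26). MMP3, stromelysin, rose 84.9-fold to 527, 632 and 670 CPM from 6.04, 5.90 and 10.4, and MMP10 84.0-fold. Plasminogen activator PLAU rose 4.93-fold. The tissue inhibitors moved apart, TIMP1 7.18-fold higher and TIMP3 2.92-fold lower. The AP-1 motif TGANTCA was found in 4 of 11 promoters of this list (36.4%) against 6.6% of all.

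Growth factors leaned down, with 12 of 22 lower and 8 higher. STC1, a secreted glycoprotein, rose from 47.4, 47.0 and 85.4 to 3220, 3096 and 3137 CPM, 53.1-fold, and ANGPTL4, an inhibitor of lipoprotein lipase, 33.4-fold. IGF1 fell 5.15-fold and its binding protein IGFBP3 3.20-fold. In the TGF-beta and BMP list 7 of 19 rose and 11 fell. BMP2 rose 29.5-fold, from 4.33 to 5.31 up to 135 to 151 CPM, while BMP4 fell 4.68-fold and SMAD6, an inhibitor that BMP signalling induces, 10.5-fold.

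Interferon-stimulated genes were lower in senescent cells. Of 33 tested, 23 fell, 0 rose by edgeR and 10 were not called, with a median of -1.16 on the log2 scale. None rose at an unadjusted p under 0.05 or by DESeq2, and 1 of the 33 rose when these libraries were fitted without the other groups. IFIT2, an RNA-binding antiviral protein, had 27.8, 41.2 and 23.1 CPM in proliferating and 3.29, 2.85 and 4.10 CPM in senescent libraries. The groups did not overlap, a 9.05-fold fall (log2 -3.18 ± 0.23, adjusted p = 1.45e-14). IFIT1, of the same family, had 23.2, 31.9 and 13.7 CPM against 1.78, 3.92 and 1.503 CPM, a 9.52-fold fall (log2 -3.25 ± 0.44, adjusted p = 3.52e-08). Levels varied between replicates of a group, as MX1, a GTPase that blocks viruses, shows with 4.17, 6.91 and 2.33 CPM against 1.17, 2.24 and 1.10 CPM. The call of MX1 ended without proliferating replicate 2. Proliferating replicate 2 was highest and replicate 3 lowest in the summed level of the list, at 914 and 714 CPM with replicate 1 at 853, and all were above the senescent libraries at 507 to 577 CPM. Without replicate 3, 24 of the genes fell, and without replicate 2, 16. ISG15 fell 1.59-fold with an adjusted p of 0.0310, a call that ended without any of 4 of the 6 libraries.

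The promoters of IFIT1 and OAS3 are shown as examples from the interferon-stimulated list. These genes have the largest changes among called interferon-stimulated genes at 5 CPM or more whose promoters hold the motif marked below. The choice thus required the motif. They lie in GRCh38.p14 at chr10:89392373-89392622 on the forward strand for IFIT1 and chr12:112938224-112938473 on the forward strand for OAS3, and capitals mark the motif, TTTC, any 2 bases and TTTC, on either strand. OAS3, an enzyme of the RNase L pathway, had 7.54, 9.46 and 4.91 CPM in proliferating and 1.92, 3.69 and 1.04 CPM in senescent libraries and fell 3.33-fold, and its log2 change of -1.74 became -2.36 without senescent replicate 2.
IFIT1: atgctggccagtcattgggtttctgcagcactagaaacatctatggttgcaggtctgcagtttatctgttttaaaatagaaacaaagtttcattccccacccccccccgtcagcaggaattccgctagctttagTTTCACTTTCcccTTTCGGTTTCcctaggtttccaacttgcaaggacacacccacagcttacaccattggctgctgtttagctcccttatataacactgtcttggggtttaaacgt
OAS3: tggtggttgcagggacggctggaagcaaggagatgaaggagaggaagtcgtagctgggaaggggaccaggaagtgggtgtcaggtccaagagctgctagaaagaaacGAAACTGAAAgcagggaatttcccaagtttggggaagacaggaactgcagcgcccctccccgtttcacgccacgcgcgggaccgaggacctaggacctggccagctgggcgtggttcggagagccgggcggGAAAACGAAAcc
The motif was found in 16 of 28 promoters of the list (57.1%) against 3.07% of all promoters, and in 0 of 7 ELR chemokine promoters. The list was made of genes known to respond to interferon, and its members were searched whether called or not. The share is thus no result about these libraries. Upstream genes were mixed. The RNA sensor TLR3 fell 8.17-fold, the DNA sensor CGAS by 0.71 and STING1 by 0.40 on the log2 scale, while the interferon gene IFNE rose 8.59-fold. Of 20 genes of antigen presentation and ligands of NK cells, 6 rose and 9 fell. The immunoproteasome subunit PSMB9 fell by 2.40 on the log2 scale (by 3.25 without senescent replicate 1), and the NKG2D ligands ULBP2, ULBP1 and MICA rose 4.10-fold, 3.56-fold and 2.20-fold. Leaving out proliferating replicate 2 or senescent replicate 1 ended the call of CGAS, and reads of HLA genes and other close copies may be shared.

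The targets of the inhibitor, the caspases, changed as transcripts in both directions. Of 16 genes of the caspase and apoptosome list, 8 rose and 5 fell. CASP1, which cleaves IL1B, had 26.7, 28.5 and 27.1 CPM in proliferating and 4.46, 4.14 and 3.01 CPM in senescent libraries, a 7.12-fold fall with no overlap (log2 -2.83 ± 0.18, adjusted p = 6.20e-16). CASP4, the caspase that senses lipopolysaccharide in the cytosol, rose from 45.3, 48.6 and 49.3 to 121, 124 and 121 CPM, 2.56-fold (log2 1.35 ± 0.10, adjusted p = 2.18e-13). CASP1 and CASP4 thus moved in opposite directions. CASP6, an executioner, fell 2.05-fold. Of the initiators, CASP9 rose 1.29-fold, CASP8 fell 1.38-fold (adjusted p = 0.0305) and CASP2 was not called (log2 0.22 ± 0.12). APAF1, the scaffold of the apoptosome, fell 1.42-fold, and CYCS, cytochrome c, rose 1.84-fold. The calls of CASP5 (log2 1.46, and 0.82 without senescent replicate 1), CASP8, CASP9 and CASP10 (log2 -1.34) were each lost without at least 1 library, CASP8 and CASP10 without any of 5 of the 6. The inhibitors of apoptosis XIAP and BIRC2 rose 1.65-fold and 1.71-fold.

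In the BCL2 family, 4 of 5 survival genes rose. MCL1, which holds BAX and BAK in check, had 218, 219 and 222 CPM in proliferating and 727, 707 and 701 CPM in senescent libraries, a 3.24-fold rise (log2 1.69 ± 0.08, adjusted p = 1.66e-18). BCL2A1, an NF-kB-induced member, rose 33.9-fold, from 0.160 to 0.170 up to 5.32 to 6.51 CPM, and BCL2L1 (BCL-xL) 2.01-fold. BCL2 itself went the other way, from 3.62 to 4.92 down to 0.520 to 1.17 CPM, 4.77-fold. Of 10 BH3-only genes and effectors, 4 rose and 2 fell. PMAIP1 (NOXA), which binds MCL1, rose 3.85-fold and the effector BAK1 2.66-fold, whereas BCL2L11 (BIM) fell 4.35-fold and BBC3 (PUMA) 1.65-fold. Among death receptors, the TRAIL receptors TNFRSF10A and TNFRSF10B rose 3.08-fold and 2.77-fold and the decoy receptor TNFRSF10D 4.33-fold, and 6 of 12 genes on the list rose (4 when scaled to library totals). Their ligand TNFSF10 was near the lower limit, at 0.0805 to 0.551 and 0.0560 to 0.347 CPM, and was not called.

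Of 10 tested genes of lytic death, 3 rose (30%) and 3 fell (30%), shares near those of all genes. MLKL, the effector of necroptosis, rose 3.66-fold, from 2.73 to 4.11 up to 11.9 to 13.9 CPM. RIPK3, the kinase that acts on MLKL, had 0 counts in the 6 libraries. GSDMD, the pore protein of pyroptosis, fell 4.02-fold, PYCARD, the inflammasome adaptor, 3.49-fold, and the sensor NLRP1 6.18-fold.

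Matrix and contractile genes fell. Of 22 collagens, 15 fell and 3 rose. COL3A1 had 1213, 1158 and 1098 CPM in proliferating and 213, 189 and 177 CPM in senescent libraries, a 5.99-fold fall with no overlap (log2 -2.58 ± 0.10, adjusted p = 1.35e-20). COL1A1 fell 2.66-fold, COL1A2 3.77-fold and COL14A1 20.1-fold, whereas COL10A1, a collagen of growth cartilage, rose 23.1-fold to 5.69 to 7.05 CPM. Of 27 matrix glycoproteins and crosslinkers, 18 fell and 2 rose. The proteoglycan DCN fell from 1376, 1314 and 1262 to 77.8, 88.4 and 85.4 CPM, 15.7-fold, and CEMIP, a hyaluronan-degrading protein, 76.0-fold. Of 16 contractile genes and targets of YAP, 13 fell and 2 rose. TAGLN, a marker of smooth muscle and myofibroblasts, fell 5.62-fold, ACTA2, smooth muscle actin, 3.13-fold and LMOD1 26.1-fold, while CCN2 was not called (log2 -0.28 ± 0.12). The transcription factors of lung mesenchyme TBX4, TCF21 and TBX5 fell 9.80-fold, 3.75-fold and 2.64-fold, and 7 of 12 on their list fell and 0 rose by edgeR, also 0 at an unadjusted p under 0.05, by DESeq2 and under each other setting run. Of the fibroblast markers, 9 of 12 fell, among them PDGFRA (3.00-fold) and THY1 (1.77-fold), and 3 rose, with NT5E at 1.72, VIM at 0.36 and FAP at 0.19 on the log2 scale. The call of FAP ended without proliferating replicate 3 or senescent replicate 2.

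Of 29 lysosomal genes, 22 rose and 3 fell, with a median of 0.52. NPC1, the cholesterol exporter of the lysosome, had 18.9, 16.9 and 19.96 CPM in proliferating and 179, 178 and 180 CPM in senescent libraries. The groups were far apart, a 9.68-fold rise (log2 3.27 ± 0.10, adjusted p = 4.06e-24). GLB1, which encodes the beta-galactosidase stained in senescent cells, rose 1.63-fold, from 82.4 to 88.7 up to 138 to 142 CPM, CTSB, a cathepsin, 3.61-fold, CTSS 12.6-fold and ATP6V0D2, a subunit of the proton pump, 59.9-fold. Of 22 autophagy genes, 14 rose and 5 fell (8 and 6 when scaled to library totals), with SQSTM1, the p62 cargo receptor, 2.22-fold higher. Metallothioneins, which bind zinc and copper, rose in 7 of 7 tested genes of their list, MT2A 5.72-fold to 411 to 444 CPM. MT1 genes are close copies and may share reads.

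In the list of glycolysis and hypoxia genes 16 of 21 rose and 5 fell. HK2, hexokinase 2, rose from 26.4, 26.6 and 25.4 to 191, 187 and 189 CPM, 7.23-fold, and SLC2A1, a glucose transporter, fell 1.80-fold. The mitochondrially encoded genes rose in 13 of 13 cases (12 by DESeq2) with a median of 1.03. MT-ND2 rose 3.54-fold and MT-CO1 1.47-fold. Mitochondrial ribosomal RNA, which a poly(A) library should hold little of, was 0.967% to 1.01% of counts in proliferating and 1.40% to 1.52% in senescent libraries, and its part in these rises was not tested. Nuclear genes of oxidative phosphorylation changed less, 15 of 32 higher and 0 lower by edgeR, DESeq2 or an unadjusted p under 0.05, with a median of 0.28. Scaled to library totals, 8 of 32 were higher, and 22 were higher and 1 lower when the compared libraries were fitted alone. Genes of the unfolded protein response rose in 11 of 15 cases, HSPA5, its main chaperone, by 1.68-fold, and 0 fell by edgeR, DESeq2 or an unadjusted p under 0.05. ATF4 stress genes were split, 10 of 24 higher and 5 lower, and DDIT3 (CHOP) rose 1.996-fold while ATF3 was not called. In the cholesterol synthesis list 13 of 21 rose and 2 fell. Targets of NRF2 fell in 6 of 17 cases and rose in 0 by edgeR and DESeq2, with 1 at an unadjusted p under 0.05, and HMOX1 was not called. ATP1B1, a subunit of the sodium pump, rose 1.29-fold.

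The steepest changes at 5 CPM or more fell on genes from several programmes. DCSTAMP, a membrane protein of fusing osteoclasts, had 0 counts in the proliferating libraries and 8.98, 8.34 and 9.07 CPM in the senescent ones, at least 160-fold higher against a floor of 3 counts over the group. LCE1F, a protein of the cornified envelope of skin, had 0 counts and then 6.17, 8.45 and 7.22 CPM, at least 134-fold higher, and IVL, involucrin, was at least 25.3-fold higher. Of 23 matched genes of the cornified envelope and epidermal keratins, 7 had enough counts to be tested, and of these 4 rose and KRT80 fell. LCE1F and IVL, with 0 counts in proliferating libraries, passed the filter only through groups in which they are high. Members silent in both states, such as SPRR1A and SPRR1B with 0 counts, were not tested. The count of risers is thus no result about the list. CST1, a cystatin, had 1 count over the proliferating libraries and 313 over the senescent ones, and the pseudogene CES1P1 1 and 271. Without proliferating replicate 3 the log2 change of CST1 went from 7.96 to 9.81 and that of CES1P1 from 7.74 to 9.59, and without replicate 2 to 7.33 and 7.11. CES1P1 resembles CES1, and reads they share cannot be assigned with certainty. At the other end, the serotonin receptor HTR2B had 7.91, 6.74 and 6.92 CPM in proliferating libraries and 0 counts in senescent ones, at least 119-fold lower. TOX, a nuclear protein known from T cells, fell from 11.2, 12.7 and 13.7 to 0.0686, 0.168 and 0 CPM, and its log2 change of -7.16 became -8.34 without senescent replicate 2. ADH1B, an alcohol dehydrogenase, fell from 12.9, 7.85 and 6.92 to 0, 0.112 and 0.173 CPM, and its log2 change of -6.43 became -7.08 without senescent replicate 3. SLC7A14, a transporter of the lysosome, fell 77.2-fold, the protease ADAMTS15 65.4-fold and NEURL1B, a ubiquitin ligase of the Notch pathway, 61.5-fold. FGF9, a growth factor, had 290 counts over the proliferating and 3 over the senescent libraries, a ratio of 87.9 with a 95% counting interval from 29.8 to 429. Its fitted log2 change of -6.29 became -7.10 without senescent replicate 2.

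The same comparison without the inhibitor, which shares no library with this one, gave 9823 genes called (52.5%), 5001 higher (26.7%) and 4822 lower (25.8%). Its proliferating replicate 3 stood apart from its group. The median absolute log2 difference was 0.206 and 0.205 for its pairs with replicates 1 and 2. For the other pairs within the groups compared it was 0.102 to 0.138. Without that library 9437 genes were called in the comparison without the inhibitor. Log2 changes with and without the inhibitor had a Pearson correlation of 0.903 across the 18696 genes and a slope of 0.931, a description only, since genes are not independent. Of the genes higher with the inhibitor, 87.8% were higher without it, and of those lower, 86.3% were lower. From the side without the inhibitor the shares were 87.4% and 86%. The scatter of all tested genes shows this.

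**Figure D4:**
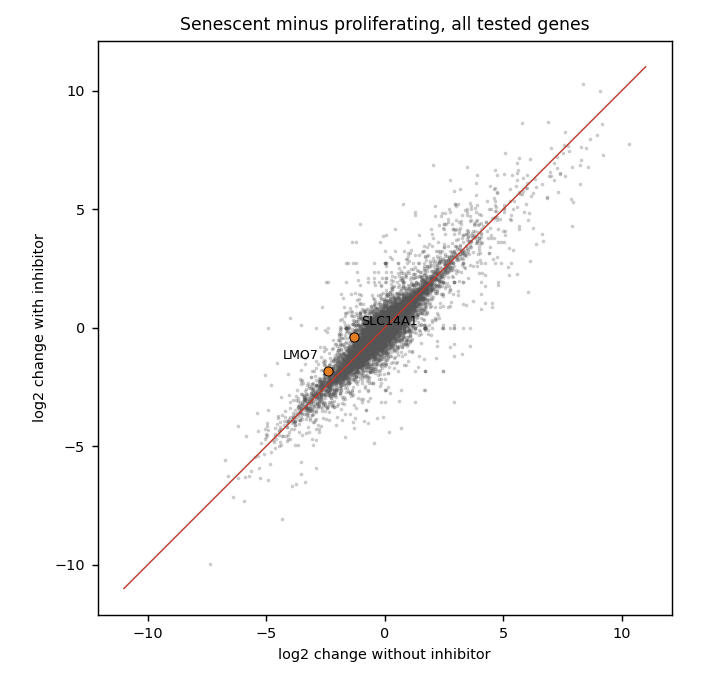
Log2 change between senescent and proliferating cells without the inhibitor (x axis) and with it (y axis) for the 18696 tested genes, 1 point a gene, with the line of equal change in red and the 2 genes called in edgeR's test of the difference, SLC14A1 and LMO7, in orange. Most points lie near the line, with a correlation of 0.903, and both orange points lie above it.

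The difference between the changes was tested directly. SLC14A1, a urea transporter, and LMO7, an actin-binding protein, were the 2 genes called by edgeR (0.0107% of those tested), with 685 at an unadjusted p under 0.05. SLC14A1 had 36.4, 39.8 and 40.0 CPM in proliferating and 29.4, 29.3 and 29.6 CPM in senescent libraries with the inhibitor, and 45.1, 40.1 and 40.5 against 15.9, 16.7 and 18.4 CPM without it. It fell by 0.40 on the log2 scale with the inhibitor and by 1.30 without it. LMO7 had 229, 233 and 229 CPM against 66.0, 68.7 and 62.5 CPM, and fell by 1.81 with and 2.39 without the inhibitor. Leaving out 1 library ended the call of SLC14A1 for 10 of the 12 libraries and that of LMO7 for 11 of the 12. A missed threshold does not show that a change was equal. The 95% interval of the difference reached a median of 0.468 on the log2 scale to each side, and for 7629 of the 9787 called genes (78%) it lay within 1 of zero. The interval ran from -0.15 to 0.35 for HRAS and from -0.29 to 0.18 for MCL1, and from -1.40 to 0.32 for MKI67, which has fewer counts.

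With edgeR's fit of all 36 libraries no list member passed the test of the difference, and SLC14A1 and LMO7 belong to no list. Other settings called some: 8 list members by DESeq2 (1 above and 7 below), 8 without the filter (8 below) and 8 with the compared libraries alone (2 above and 6 below). IL6 and NFKBIZ, a regulator of NF-kB targets, were called in each of these settings, and CXCL1 by DESeq2 and without the filter. Rises of these genes were smaller in the presence of the inhibitor. ARC was also called by DESeq2 and without the filter. HMGA2, SOD2 and STC2 were called by DESeq2 and with the compared libraries alone. TNFAIP3 was called without the filter and with the compared libraries alone. Thinned to 1 total, ETV4 alone was called, above. CXCL8 was called without the filter and without proliferating replicate 1 with the inhibitor. Interferon-stimulated genes were called lower in 23 of 33 cases with the inhibitor and in 15 without it, with medians of -1.16 and -0.66, and that contrast between counts is not a test. ELR chemokines had a median of 5.51 with and 7.62 without the inhibitor, and CXCL8 rose by 6.76 and 8.59 (difference -1.83, 95% interval -2.66 to -1.001, adjusted p = 0.131). Without proliferating replicate 3 its rise with the inhibitor was 7.62. Levels of CXCL8 in senescent libraries were 459 to 478 CPM with and 654 to 787 CPM without the inhibitor, and the summed ELR chemokines 545 to 572 against 793 to 950 CPM. IL6 rose by 2.10 with and 3.53 without the inhibitor (difference -1.43, interval -2.27 to -0.60, adjusted p = 0.735). In the caspase and apoptosome list 8 rose and 5 fell with the inhibitor and 7 rose and 4 fell without it, and the 10 called in both had the same sign. CASP1 fell by 2.83 and 2.98, and CASP4 rose by 1.35 and 1.53. Of the genes called in both arms, 3 had opposite signs, STAC2, RAB33A and ENSG00000241251, named after their values were seen. All had group means under 1 CPM, and their differences did not pass the test.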

How the data were processed

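RNA of cultured IMR90 ER:RAS cells was taken up in TRIzol, purified on columns and made into stranded mRNA libraries, per the labels' protocols. Per the submitters' processing notes, the tools named are TopHat2 2.0.11 and featureCounts with build hg19. The authors deposited whole, unnormalized counts for 57232 Ensembl genes. The strand setting and annotation release are not stated. Symbols came from the deposited table's identifiers through RefSeq and GENCODE names for 51367 genes, and 5865 stayed unnamed. Library totals over all 36 libraries ran from 10854351 to 21446415 counts, and genes with few counts carry wide errors.

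All 36 libraries were fitted in 1 model of 12 group means with edgeR 4.0.16 (R 4.3.3, limma 3.58.1): filterByExpr by group, TMM scaling, the quasi-likelihood test and Benjamini-Hochberg adjustment over 18696 genes, two-sided, with 0.05 as the threshold. Standard errors (SE) and 95% intervals are Wald values from the fit's working weights. Folds against a group with 0 counts were bounded by 3 counts in that group. Such bounds and the intervals of count ratios hold counting error alone, as PCR copies are not separate molecules. CPM is a count scaled to 1 common total with the TMM factor. In simulated data 200 genes, drawn from those with a mean over 1 CPM, were changed and all others were equal in all groups. Tested for the comparison with the inhibitor over 17937 genes, 56.7% of 1.5-fold, 91% of 2-fold and 100% of 4-fold changes were recovered. Of the calls, 2.94% were false. The real data hold far more changed genes, so these rates do not carry over to them, nor to genes below 1 CPM. Alternatives were DESeq2 1.42.0, RLE or library-size scaling, no filter, a replicate block, the compared libraries alone, and leaving out each library. Thinning 12 libraries to 1 total was added after seeing the data.

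Members of the 46 lists and the comparisons were chosen with earlier results of these data known. Of 816 list entries, 8 were not matched to an identifier, and 744 of 803 distinct matched genes were tested. Named are a panel of senescence, caspase and BCL2 genes, the 8 called genes a direction that changed most at 5 CPM or more and no overlap, up to 4 called members a list in each direction at 1 CPM or more, and genes called in the difference. Further list members are named as examples, chosen after their values were seen. Promoters are the 250 bases before the RefSeq start in GRCh38.p14, and no coordinate was converted between builds. Some items are not reported here.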

Additional observations from a re-analysis of the deposited data

Results flagged for a closer look

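SLC14A1, a urea transporter, is listed because the change between senescent and proliferating cells differed with and without the inhibitor in a test of the difference itself. The log2 difference was 0.90 (95% interval 0.59 to 1.21, adjusted p = 0.0251, edgeR quasi-likelihood), as the gene fell by 0.40 with the inhibitor and by 1.30 without it. LMO7, an actin-binding protein, is listed for the same reason, with a log2 difference of 0.58 (95% interval 0.37 to 0.79, adjusted p = 0.0283). LMO7 fell by 1.81 with the inhibitor and by 2.39 without it. Leaving out 1 library ended the call of SLC14A1 for 10 of the 12 libraries and that of LMO7 for 11 of the 12, and LMO7 was also not called with RLE scaling, with library totals or without the filter. With 1 library left out, the ranges of the difference were 0.84 to 0.96 for SLC14A1 and 0.54 to 0.61 for LMO7. Groups of 3 libraries were not tested for a single library far from the others.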

How the results depend on the processing

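The count of genes called with the inhibitor lay between 8897 and 11157 under the 13 alternatives, against 9787, and between 8897 and 9143 with 1 library left out. Without the inhibitor it lay between 8989 and 10225. Scaling to library totals alone moved the split to 3642 higher and 6052 lower. The replicate block gave 9745 genes with the inhibitor and 2 for the difference. Across all tested genes same-numbered libraries did not deviate together, with correlations of 0.014, 0.005 and -0.001 with the inhibitor and -0.025, 0.001 and -0.039 without it. For the summed interferon-stimulated genes, replicate 2 was highest in each group. It reached 914 and 577 CPM with the inhibitor and 789.5 and 504 CPM without it (proliferating, then senescent). Whether the numbers pair samples is thus not settled. The count for the difference moved most: 19 by DESeq2 (8 above and 11 below), 20 without a filter (10 and 10), 26 with the compared libraries alone (16 and 10), 5 thinned to 1 total (5 above), 1 with RLE scaling (1 above) and 1 with library totals (1 above), against 2 above and 0 below, and 0 to 2 with 1 library left out (0 to 2 above, 0 to 1 below). Where it was 0 in edgeR, 613 to 704 genes had an unadjusted p under 0.05. The cause was not tested. No called log2 change of a named gene changed sign under these alternatives. With 10854351 counts in the shallowest library, changes of genes near 1 CPM are poorly resolved.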
